A study of Mus musculus with 18 samples.

Results

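The addition of the MEK inhibitor PD0325901 to cells already exposed to the GSK3 inhibitor CHIR99021 was examined with 6 of the 18 RNA-seq samples of the study. These were the 3 samples labelled 2i and the 3 labelled CH, chosen by their labels alone, and all genes expressed in them were compared. Both groups were wild-type E14 cells, a mouse embryonic stem (ES) cell line, at passage 20, embedded in growth factor depleted Matrigel and grown for 48 h in N2B27 medium. CH cultures received 3 µM CHIR99021, and 2i cultures received 3 µM CHIR99021 together with 0.4 µM PD0325901. All cells had been maintained before embedding in 2i/Lif, which holds both inhibitors at these doses and Lif at 4 ng/ml. The CH cultures were therefore cells from which the MEK inhibitor had been withdrawn for 48 h, and both groups had lost Lif. No culture with PD0325901 alone was analysed here, so the comparison describes the MEK inhibitor on a background of GSK3 inhibition only. Cultures in DMSO, the solvent, and in 12 ng/ml Fgf2 with 20 ng/ml Activin A, 3 of each, served as reference levels.

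MEK is the kinase that phosphorylates and activates ERK, the last step of the RAS, RAF, MEK and ERK cascade that receptors for FGF and other growth factors switch on. Active ERK induces immediate early transcription factors within minutes, among them Egr1 and Fos, and ETS factors of the Etv family, and it also induces its own inhibitors, the Sprouty and Spred proteins and the dual specificity phosphatases. ES cells secrete Fgf4 and thereby stimulate their own ERK, a signal that prepares them to leave naive pluripotency, whereas inhibition of GSK3 stabilises β-catenin and relieves repression by TCF factors. The question of the comparison was which genes depended on MEK activity and which were held down by it while Wnt signalling was active.

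The libraries of the 6 samples held between 25388139 and 35089261 counts on genes. Replicate number 1 stood apart from numbers 2 and 3 in every condition. Within 2i, the chi-square per gene was 41.6 and 37.0 between replicate 1 and replicates 2 and 3, and 5.36 between replicates 2 and 3. Within CH the corresponding values were 56.2, 50.3 and 5.54. When the 500 genes of highest variance were decomposed into principal components, the first, with 60.2% of the variance, separated 2i from CH and the second, with 32.6%, separated replicate 1 from the others. The deviations of same-numbered 2i and CH samples from their group means correlated, at 0.82, 0.72 and 0.65 across 11200 genes (genes are no independent replicates). Numbers 2 and 3 were not told apart by this measure, since 2i replicate 3 correlated with CH replicate 2 at 0.70 and 2i replicate 2 with CH replicate 3 at 0.63. The replicate number was a block in the test, as set in the plan of this comparison, and counts of genes are also given without replicate 1. The labels do not say whether replicates were separate cultures, so the p-values measure the spread between these samples, which may be technical.

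The labelled cell type was checked first. The 10 ES cell markers were all present, with a summed level of 5010 to 5199 CPM, counts scaled to a common library size, in 2i and 3485 to 4295 CPM in CH. The summed primitive endoderm markers lay between 133 and 146 CPM in 2i and between 106 and 109 CPM in CH, with Afp and Ttr at 0 counts in all 6 samples. Of 12 tested, Dab2 and Foxa2 were called lower in 2i (16.7%, beside 3.25% of all genes) and 0 higher. Their median log2 fold change was -0.15, so the higher sum in 2i does not hold for each member. Trophectoderm markers summed to 108 to 131 CPM and 130 to 169 CPM, of which Cdx2, also a gene of the primitive streak, was called lower in 2i. It was the only call among 8 tested (12.5%, beside 3.25%). Fibroblast markers reached 4.69 to 4.90 CPM in 2i and 7.68 to 13.4 CPM in CH, with Fap at 0. Neural markers reached 19.7 to 51.4 and 24.6 to 50.7 CPM, and markers of 2-cell-like cells 224 to 237 and 205 to 256 CPM. Of the 15 markers of 2-cell-like cells matched, only Eif1a and Arg2 had enough counts to be tested. The others had at most 13 counts in any of the 6 samples, with Tcstv3 and Tdpoz1 at 0, and Dux was not matched. That sum therefore stands almost wholly on Eif1a and Arg2. Nes, 1 of 6 neural markers tested (16.7%, beside 3.25%), was also called lower in 2i. Whether differences in these cells had a part in the results was not tested. In bulk RNA, fewer cells of a type and less RNA per cell cannot be told apart.

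Far more genes were called lower than higher where the MEK inhibitor was added. Among 16413 genes tested, 534 were lower in 2i than in CH and 138 were higher, at an adjusted p under 0.01 (edgeR, quasi-likelihood, adjusted by Benjamini-Hochberg) and a change of more than 2-fold, which is the meaning of called throughout. These counts are 3.25% and 0.841% of the genes tested, and 4.09% in either direction. The genes that fell also changed more. Their median log2 fold change was -1.80, and 209 fell by more than 4-fold and 72 by more than 8-fold. Among those that rose the median was 1.37, with 17 over 4-fold and 0 over 8-fold. Many of the falls were in genes of few counts. A mean of at least 100 counts over the 6 samples was reached by 188 of the 534 and by 93 of the 138. Past the adjusted p alone, whatever the fold, 849 genes were lower and 657 higher, a smaller difference between the directions. The 3 samples of 2i lay entirely below those of CH for 503 of the 534 genes, and entirely above for 132 of the 138, beside 13.1% and 12.7% of all genes tested. All 534 and all 138 genes had the same direction within each of the 3 replicate numbers. The counts of overlap and direction come from the samples that made the calls. They describe the calls and give them no further support. Without the block, 274 genes were called lower and 52 higher, all of them among the 534 and 138. Without replicate number 1 of every condition, 545 and 210 were called, of which 439 and 120 were among the main calls.

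**Figure D1:**
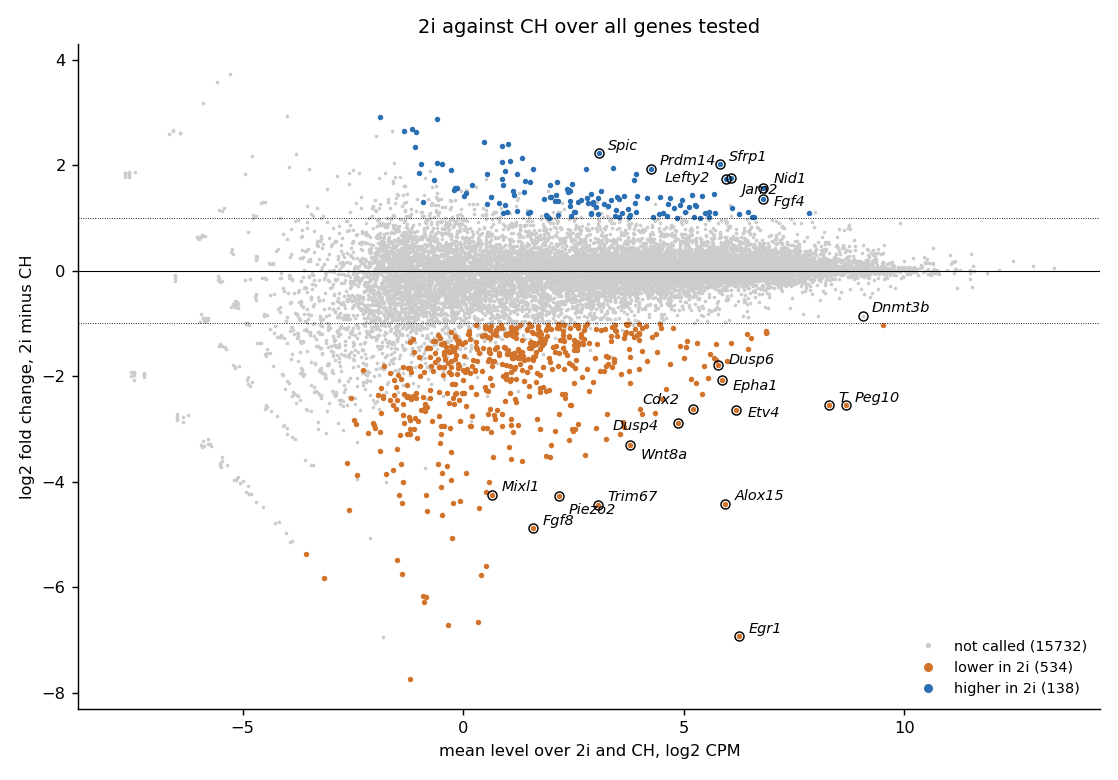
Log2 fold change (2i minus CH) of each gene tested against its mean level over the 6 samples (log2 CPM), with genes called lower in 2i in orange, genes called higher in blue and dotted lines at 2-fold. Of the 534 genes that fell, Egr1 at -6.93 lies lowest apart from Psmb8, whose value was fitted against 0 counts in 2i, whereas the 138 that rose stay within 8-fold of no change. Genes with no count in either group are not drawn.

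Immediate early genes, transcribed first when ERK is activated, held the largest change of a well expressed gene. Egr1, which encodes a zinc finger transcription factor, was at 1.74, 1.15 and 0.875 CPM in 2i and 135, 159 and 162 CPM in CH. Every 2i sample was far below every CH sample. The log2 fold change was -6.93 ± 0.28 (SE), with an adjusted p of 3.49e-07 in edgeR's test. In DMSO, with neither inhibitor, Egr1 lay between at 33.6, 23.3 and 24.1 CPM. Its relative Egr2 was low throughout, at 0.174, 0.0295 and 0.0937 CPM in 2i and 1.33, 1.21 and 1.20 CPM in CH, again without overlap (log2 fold change -3.67, edgeR adjusted p 2.28e-04). Fos, a subunit of the dimeric factor AP-1, was at 2.44, 1.15 and 1.16 CPM in 2i and 14.1, 6.54 and 6.88 CPM in CH, and its partner Junb at 3.87, 3.27 and 2.59 CPM in 2i and 8.92, 8.31 and 8.88 CPM in CH. Both fell, with log2 fold changes of -2.55 and -1.45. Maff and Atf3, 2 further bZIP factors, fell, with -1.46 and -1.20, and completed the 6 called members. The list counted 34 tested genes, with 6 called, all lower (17.6%, beside 3.25% of all genes), and a median log2 fold change of -0.32, beside -0.0006 over all genes tested. The other 28 did not pass the test. They included Myc at 5.68, 15.3 and 14.4 CPM in 2i and 9.64, 25.5 and 22.6 CPM in CH, Fosl1 with a log2 fold change of -0.86 (edgeR adjusted p 0.0449), Phlda1 with -0.48 (0.395) and Ier3 with -0.11 (0.903). Fosl1 and Phlda1 share exon bases with overlapping genes, whose reads cannot be told apart in unstranded counts. Without the block, Fos, Junb and Atf3 missed the threshold, with edgeR adjusted p of 0.0384, 0.0292 and 0.0168, and Maff was called in 2 of 6 fits that left out 1 library.

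The 250 bases before the start site of Egr2 are shown because the serum response element, the CArG box bound by serum response factor, is the classical ERK-responsive element of immediate early promoters. The window lies on the plus strand of GRCm38, chr10:67537619-67537868, upstream of the annotated exons in GENCODE, and is taken from RefSeq. Capitals mark the single match to a CArG box, 72 to 63 bases before the start site.
Egr2: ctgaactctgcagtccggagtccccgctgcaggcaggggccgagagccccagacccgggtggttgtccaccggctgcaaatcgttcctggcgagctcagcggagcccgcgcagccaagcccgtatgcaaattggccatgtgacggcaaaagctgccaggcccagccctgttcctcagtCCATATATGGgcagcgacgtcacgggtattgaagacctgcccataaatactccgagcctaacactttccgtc
Of the 11726 tested genes with a promoter window in that collection, 1.53% held such a match, and of 394 windows of genes called lower in 2i 1.02% did, with an exact binomial interval of 0.277% to 2.58%. Among 101 windows of genes called higher the share was 1.98%. The ETS core CCGGAAG, searched on both strands, was in 6.35% of the windows of genes that fell, 6.93% of those that rose and 18.4% of all. The AP-1 motif TGACTCA was in 5.84%, 4.95% and 4.55%. A match is a string of letters and not evidence of binding.

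Feedback inhibitors of ERK signalling fell in part of the list. The phosphatases Dusp4 and Dusp6 remove phosphate from ERK in the nucleus and the cytoplasm, respectively. Dusp4 was at 4.42, 8.35 and 7.97 CPM in 2i and 51.6, 54.2 and 47.5 CPM in CH, and Dusp6 (chr10:99263231-99267489) at 19.8, 26.9 and 26.4 CPM in 2i and 92.4, 81.9 and 80.9 CPM in CH. Neither overlapped between groups, and both fell, with log2 fold changes of -2.88 ± 0.24 (SE) and -1.79 ± 0.13 (SE) and edgeR adjusted p of 3.96e-05 and 2.15e-05. Dusp2, a nuclear phosphatase with 60 counts over the 3 CH samples and 5 over the 3 of 2i, was 13.4-fold lower, with an exact interval of 5.42 to 42.7 for counting error only. Spry4, a Sprouty protein that blocks signalling from receptors to RAS and RAF, was at 2.51, 7.08 and 7.41 CPM in 2i and 31.3, 36.9 and 37.7 CPM in CH. It fell by 2.69 on the log2 scale (edgeR adjusted p 1.16e-04). Spred3 fell by 1.55, a call that was lost without the block (edgeR adjusted p 0.0657).

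The other members of this list were not called. Dusp8 had 23 counts over the CH samples and 4 over those of 2i, a ratio with an exact interval of 2.19 to 25.5 for counting error only. Spry2 was at 59.0, 68.0 and 69.6 CPM in 2i and 84.1, 104 and 109 CPM in CH, a difference of -0.59 on the log2 scale that passed the adjusted p in edgeR's test (9.21e-04) but was under 2-fold. Spred1, at -0.51, was also lower by less than 2-fold, as were Dusp5 and Dusp9, at -0.94 and -0.59. Spry1, Spred2 and Il17rd, which binds FGF receptors, did not pass the test, with -0.37, -0.03 and -0.21. Lrig1, a membrane protein that promotes degradation of receptor tyrosine kinases, and its relative Lrig3 moved the other way, at 0.89 and 0.59, both past the adjusted p and under 2-fold. In all, 5 of 25 tested members were called, all lower (20.0%, beside 3.25% of all genes), with a median of -0.29. Of the 26 names 1, Spry3, was not matched in the table.

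ETS factors of the Etv family are phosphorylated by ERK and transcribed in response to FGF. Etv4 (chr11:101769742-101785371) was at 7.17, 29.1 and 26.6 CPM in 2i and 74.7, 153 and 148 CPM in CH and fell by 2.65 on the log2 scale (SE 0.30, edgeR adjusted p 2.34e-04). Replicate 1 was lowest in both groups, and without the block the adjusted p was 0.0110. Its close paralogue Etv5 was at 642, 606 and 591 CPM in 2i and 538, 672 and 668 CPM in CH. The groups overlapped, and the log2 fold change was -0.03 (edgeR adjusted p 0.857). Etv1 had -0.95 (0.0384), and without replicate number 1 -0.85 (2.21e-05). Elf3, an epithelial ETS factor, was the 1 member called higher, at 1.25, and was not called without the block (edgeR adjusted p 0.10). Of 16 tested members 1 was lower and 1 higher (6.25% each way, beside 3.25% and 0.841% of all genes), and the median was 0.17.

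**Figure D2:**
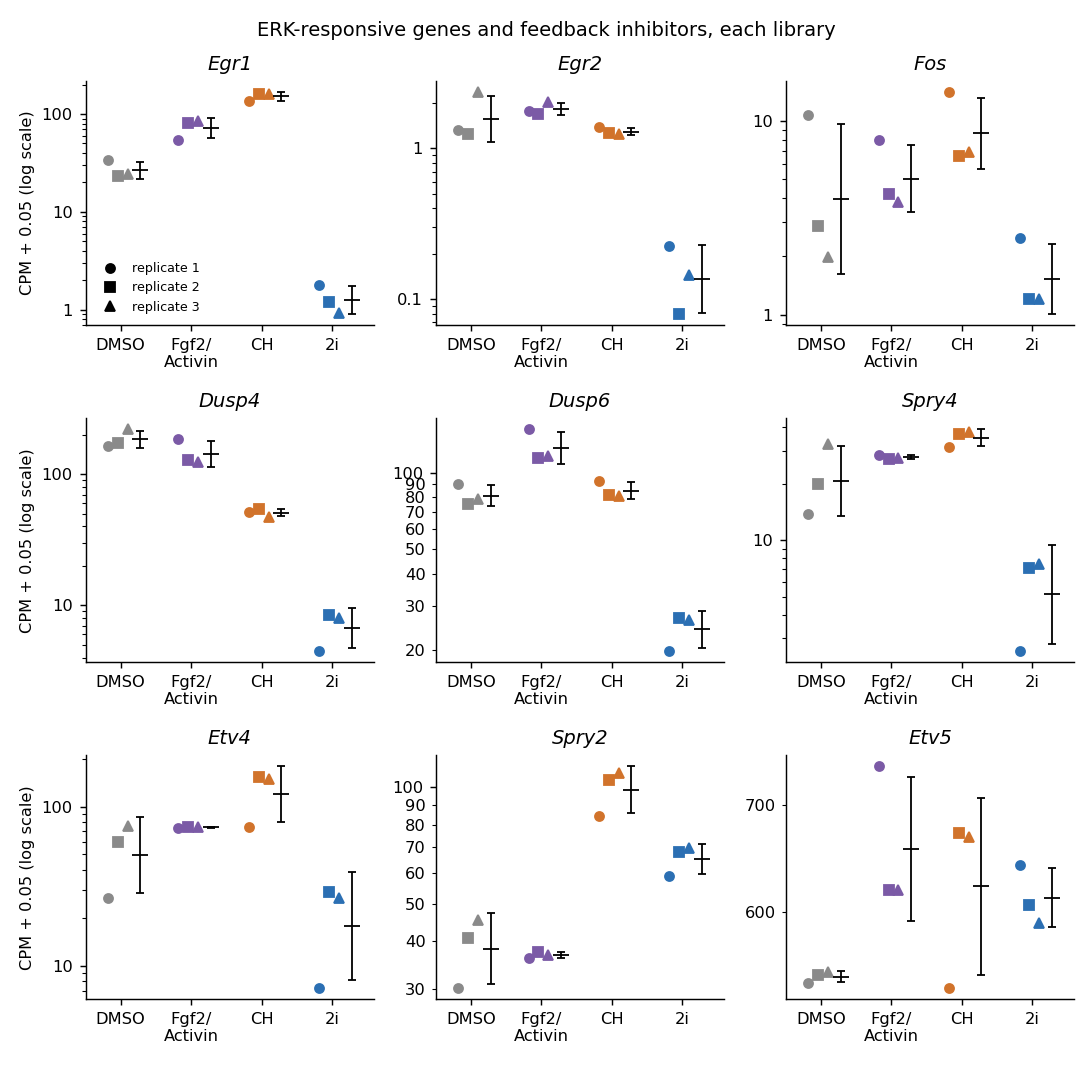
Level of 9 ERK-responsive genes in each library of the 4 wild-type conditions, as CPM plus 0.05 on a log scale, with symbols for replicate numbers and a black bar for the mean ± SD of the log2 values (n = 3). Egr1, Egr2, Fos, Dusp4, Dusp6, Spry4 and Etv4 have their lowest mean in 2i, whereas Spry2 in 2i lies between CH and the other conditions and Etv5 overlaps between 2i and CH.

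The ligands, receptors and kinases upstream of ERK changed in few members. Fgf4, the main FGF that ES cells secrete, was at 168, 153 and 156 CPM in 2i and 47.9, 65.6 and 72.9 CPM in CH, with no overlap. It rose by 1.37 on the log2 scale (SE 0.14, edgeR adjusted p 1.08e-04). Fgf8, a ligand of the primitive streak, was at 0.139, 0.206 and 0.219 CPM in 2i and 9.98, 4.71 and 2.80 CPM in CH and fell by 4.88 on that scale (edgeR adjusted p 6.31e-04). Fgf13, an intracellular homologue that is not secreted, fell by 1.16 and was called in 2 of 6 fits with 1 library left out. Fgfr1, the main FGF receptor of the epiblast, was lower by less than 2-fold, at -0.77 with an edgeR adjusted p of 0.00107. Of 18 tested FGF ligands and receptors, 2 were lower (11.1%, beside 3.25% of all genes) and 1 higher (5.56%, beside 0.841%), with a median of -0.22. Among 28 receptor tyrosine kinases tested, the ephrin receptors Epha1 and Ephb2 fell (7.14%, beside 3.25%) and 0 were called higher. Epha1 was at 18.6, 25.5 and 23.6 CPM in 2i and 84.8, 104 and 92.2 CPM in CH, a log2 fold change of -2.06 (edgeR adjusted p 1.43e-05), and Ephb2 had -1.65. Epha2 was at 131, 159 and 155 CPM in 2i and 199.5, 298 and 298 CPM in CH, a difference of -0.83 on the log2 scale and thus under 2-fold (edgeR adjusted p 0.00988). Kit and Tyro3 were higher by less than 2-fold, at 0.92 and 0.82. None of the 38 genes of the cascade from RAS adaptors to ERK and its substrate kinases was called by edgeR's test, with a median of 0.06, and 0 by DESeq2, while 7 lower and 9 higher members had an unadjusted p under 0.05. Mras, a RAS relative singled out after its values were seen, was called higher in the fit of 6 samples, with no filter, without replicate number 1 and without CH replicate 1. The genes for MEK itself, Map2k1 and Map2k2, had log2 fold changes of 0.17 and -0.03, and Mapk3, a gene for ERK, of 0.17, with edgeR adjusted p of 0.194, 0.767 and 0.0328.

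Primitive streak and mesendoderm factors include genes that GSK3 inhibition can induce through β-catenin. Of 32 members 28 were tested, 14 were lower in 2i and 1 was higher, with 3.25% and 0.841% over all genes. Of the 14, 6 had fewer than 10 counts in every 2i sample, and such members can pass the filter on low counts through their level in CH, so that the count is a description only. The other 8 had at least 10 counts in each 2i sample. When 10 counts were required in each of the 12 samples, 4 members were left and 1 of them, Snai1, was called. T, the Brachyury factor of the streak (chr17:8434423-8442496), was at 114, 80.4 and 79.0 CPM in 2i and 665, 502 and 436 CPM in CH. The groups did not overlap, and T fell by 2.55 on the log2 scale (SE 0.15, edgeR adjusted p 4.96e-06). In DMSO it was at 0.480, 0.344 and 0.579 CPM, so that 2i cultures, at a mean of 91.0 ± 19.7 CPM (SD, n = 3), kept T far above the level without GSK3 inhibitor. The region before its start site is shown because T is a direct target of β-catenin and TCF factors. The window is on the plus strand of GRCm38, chr17:8434173-8434422, from RefSeq, and capitals mark the single match to the TCF motif CTTTGAA, here on the reverse strand, 235 to 229 bases before the start site.
T: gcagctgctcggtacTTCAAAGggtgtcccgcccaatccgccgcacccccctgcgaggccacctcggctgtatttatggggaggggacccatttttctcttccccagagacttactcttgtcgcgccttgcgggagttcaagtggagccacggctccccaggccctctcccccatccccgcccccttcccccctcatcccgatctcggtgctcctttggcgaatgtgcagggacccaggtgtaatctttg
The TCF motif was in 4.57% of the windows of genes called lower, 5.94% of those called higher and 4.36% of all, on both strands.

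The other streak genes that fell were homeobox factors, Wnt ligands and regulators of mesendoderm. Cdx2 and Cdx4, caudal homeobox factors of the posterior embryo, were at 7.07, 10.5 and 12.7 CPM in 2i and 91.8, 54.1 and 45.4 CPM in CH and at 1.43, 1.83 and 1.91 CPM in 2i and 21.7, 11.6 and 9.96 CPM in CH, respectively. All 3 caudal genes fell, with log2 fold changes of -2.63 for Cdx2, -2.99 for Cdx4 and -1.25 for Cdx1. Wnt8a and Wnt3a, ligands made in the streak, fell, with -3.30 and -4.19. The homeobox factor Evx1 was at 1.18, 3.63 and 2.88 CPM in 2i and 21.5, 21.7 and 19.7 CPM in CH and fell by 3.10 on the log2 scale. Mixl1, a homeobox factor of mesendoderm, had 0.174, 0.118 and 0.156 CPM in 2i and 5.28, 2.22 and 1.56 CPM in CH, a log2 fold change of -4.25 (edgeR adjusted p 9.51e-04). Lhx1 was detected by 90 counts in CH and 1 in 2i, and Hoxb1 by 240 and 5, a 53.5-fold difference with an exact counting interval of 22.6 to 166. Foxa2 and Snai1, the repressor of E-cadherin, fell, with log2 fold changes of -2.82 and -1.19. Eomes, another T-box factor of the streak, did not pass the test at 3.69, 3.63 and 4.12 CPM in 2i and 0.954, 3.50 and 3.68 CPM in CH. The exception in direction was Lefty2, a secreted inhibitor of Nodal, which was at 113, 88.6 and 87.3 CPM in 2i and 26.8, 32.1 and 27.6 CPM in CH and rose by 1.74 on the log2 scale (edgeR adjusted p 1.08e-04). The calls of Lhx1 and Cdx1 were lost without the block (edgeR adjusted p 0.0132 and 0.0156), and Foxa2 and Snai1 were called in 3 and Cdx1 in 4 of 6 fits that left out 1 library.

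Wnt feedback targets, which respond to β-catenin in most cell types, held 4 calls. Axin2, the scaffold of the β-catenin destruction complex and a general Wnt target, was at 206, 148 and 149.8 CPM in 2i and 270.1, 158 and 156 CPM in CH, with overlap and a log2 fold change of -0.19 (edgeR adjusted p 0.379). In DMSO it was at 9.02, 6.51 and 7.91 CPM. Sp5 was lower, with -0.71 on the log2 scale, past the adjusted p and under 2-fold, and Lef1 at -0.54 and Ccnd1, the gene for cyclin D1, at 0.06 did not pass. Nkd1 and Nkd2, intracellular inhibitors of Wnt signalling, fell, with -1.75 and -1.62, the latter a call lost without the block (edgeR adjusted p 0.0574) and made in 1 of 6 fits without 1 library. Sfrp1, a secreted Wnt antagonist, was at 61.8, 106 and 105 CPM in 2i and 12.2, 24.7 and 31.4 CPM in CH and rose by 2.02 (edgeR adjusted p 4.63e-04). Among 24 tested members, 3 were lower (12.5%, beside 3.25%) and 1 higher (4.17%, beside 0.841%), and the median was -0.24. The 3 became 1 without the block and without replicate 2 of either 2i or CH.

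**Figure D3:**
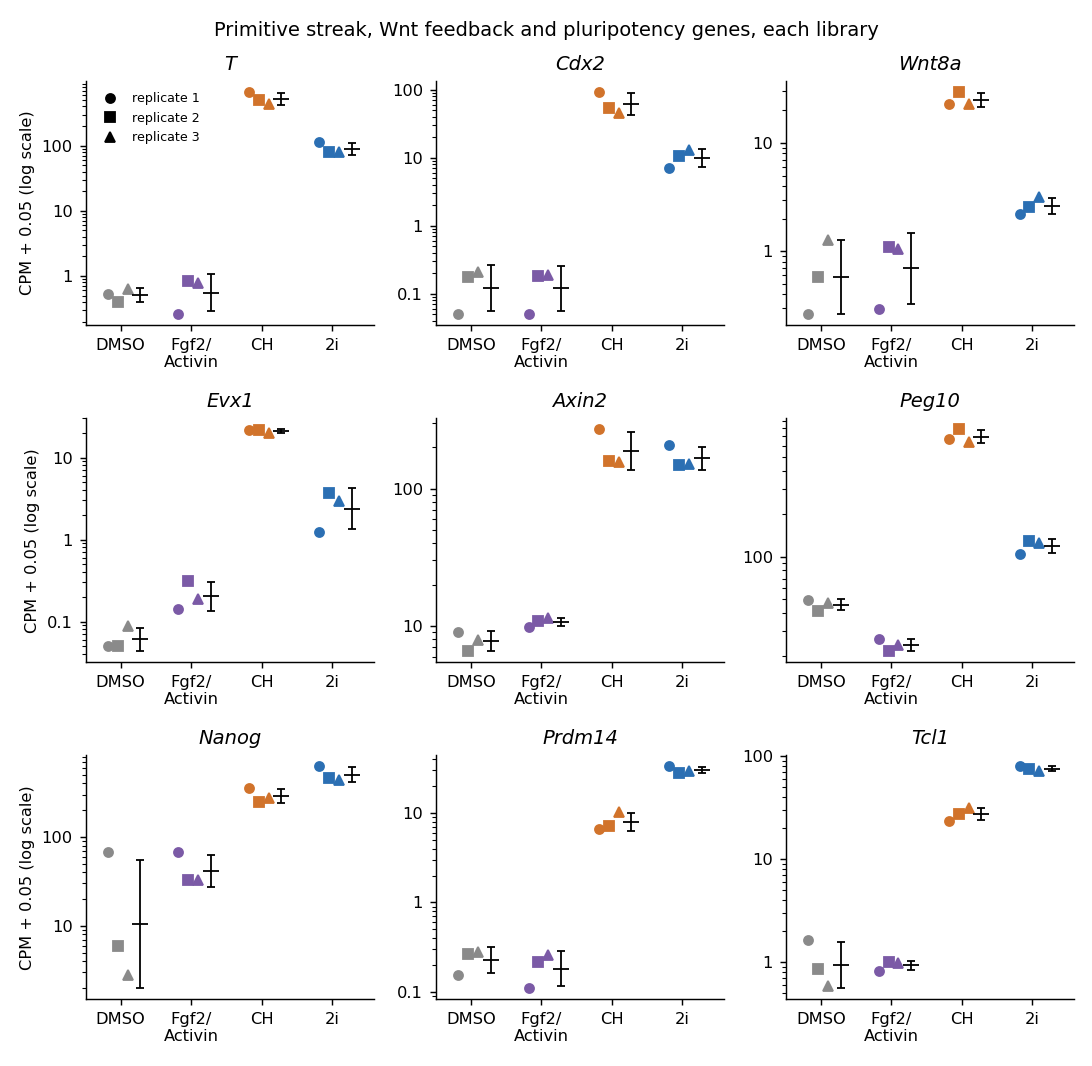
Level of 9 genes in each library of the 4 wild-type conditions, as CPM plus 0.05 on a log scale, with symbols for replicate numbers and a black bar for the mean ± SD of the log2 values (n = 3). T, Cdx2, Wnt8a and Evx1 in 2i lie below CH and above DMSO, Axin2 overlaps between CH and 2i, and Nanog, Prdm14 and Tcl1 are highest in 2i.

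Naive pluripotency factors, the transcription factors of the pre-implantation epiblast, had mostly positive log2 fold changes. Prdm14, a repressor of FGF signalling genes and of DNA methyltransferases (chr1:13113457-13127163), was at 33.0, 28.1 and 29.0 CPM in 2i and 6.64, 7.03 and 10.3 CPM in CH and rose by 1.94 on the log2 scale (SE 0.17, edgeR adjusted p 5.91e-05). Tcl1, a coactivator of AKT, was at 79.5, 75.5 and 71.5 CPM in 2i and 23.6, 27.7 and 31.2 CPM in CH and rose by 1.45. Dppa5a, Tbx3 and Klf4 were higher by less than 2-fold, at 0.91, 0.83 and 0.59, past the adjusted p. Socs3, a feedback inhibitor of Lif signalling that the list also holds, was at 4.11, 1.00 and 1.59 CPM in 2i and 18.9, 3.79 and 3.52 CPM in CH and fell by 1.79, with replicate 1 the highest in both groups and no call without the block (edgeR adjusted p 0.183). Of 26 tested members, 2 were called higher (7.69%, beside 0.841%) and 1 lower (3.85%, beside 3.25%). A log2 fold change above 0 was found in 20 of them, beside 8188 of the 16413 genes tested, and the median was 0.40.

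For Nanog, Esrrb and Tfcp2l1, central factors of the naive network, the test depended on which samples shared the estimate of spread. Nanog was at 622, 459 and 436 CPM in 2i and 358, 248 and 276 CPM in CH, Esrrb at 566, 552 and 530.4 CPM in 2i and 363, 286 and 314 CPM in CH, and Tfcp2l1 at 472, 461 and 450.3 CPM in 2i and 298, 251 and 259.8 CPM in CH. In none of them did the groups overlap, and the log2 fold changes were 0.78, 0.80 and 0.79. In the fit of all 12 wild-type samples the edgeR adjusted p were 0.366, 0.0775 and 0.0626. In a fit of only the 6 samples of 2i and CH they were 1.16e-05, 2.52e-05 and 1.16e-05, and without replicate number 1 6.22e-05, 1.34e-06 and 6.50e-08. In DMSO the same genes differed widely between libraries, with Nanog at 67.9, 5.92 and 2.78 CPM and Esrrb at 30.2, 8.98 and 6.87 CPM. The number of naive factors past the adjusted p, whatever the fold, was 5 higher and 1 lower with all 12 samples and 15 higher and 4 lower with the 6. Klf2 and Nr0b1 had 0.48 and 0.15 on the log2 scale, with edgeR adjusted p of 0.00613 and 0.111 in the fit of 6 samples. Pou5f1, which encodes Oct4 and marks naive and primed cells alike, was at 745, 919.8 and 883 CPM in 2i and 662, 921 and 916 CPM in CH (0.04, edgeR adjusted p 0.753), and Sox2 was higher by 0.42, under 2-fold (0.00263). None of the 7 core pluripotency factors was called by edgeR's test, and 0 by DESeq2, with 1 lower and 1 higher member at an unadjusted p under 0.05.

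Formative and primed epiblast factors, which mark cells that have left the naive state, were called in 4 of 22 tested members, all lower (18.2%, beside 3.25%), with a median of -0.62. Peg10, an imprinted gene derived from a retrotransposon and counted in this list, was at 104, 129 and 124 CPM in 2i and 670.5, 785 and 643 CPM in CH, without overlap, and fell by 2.55 on the log2 scale (SE 0.11, edgeR adjusted p 7.58e-07). Sox11, a factor of the epiblast and neural lineage, was at 15.3, 28.8 and 31.1 CPM in 2i and 60.6, 93.7 and 79.0 CPM in CH and fell by 1.65. The kinase gene Pim2 and Cdh2, the gene for N-cadherin, fell, with -1.49 and -1.34, with overlap between the groups and replicate 1 the lowest in each, and neither was called without the block (edgeR adjusted p 0.150 and 0.333). Dnmt3b, a de novo DNA methyltransferase, was at 292, 425 and 411 CPM in 2i and 467, 835 and 766 CPM in CH, a difference of -0.86 on the log2 scale and thus under 2-fold (edgeR adjusted p 1.17e-04). Dnmt3a, its cofactor Dnmt3l, Otx2 and Fgf5 did not pass, with -0.27, -1.19, -0.47 and -1.25. Without replicate number 1 the adjusted p of Dnmt3l was 5.09e-07 and that of Otx2 2.51e-07, at log2 fold changes of -1.09 and -0.90. Both groups stood far below DMSO for Otx2, with a mean of 188 CPM there against 21.2 in CH and 14.5 in 2i.

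Genes of the Lif and STAT3 axis, receptor subunits included, were called in 4 of 21 tested members, all lower (19.0%, beside 3.25%), with a median of 0.01. Without the block 1 call was left, and without 2i replicate 1 or 2 there were 2. Besides Socs3 and Junb these were Gbp2 and Gbp3, guanylate binding proteins induced by interferon and by STAT factors. Gbp2 was at 1.18, 1.42 and 1.25 CPM in 2i and 7.59, 13.6 and 9.88 CPM in CH, a log2 fold change of -2.99, and Gbp3 fell by 2.39 on that scale, a call made in 2 of 6 fits that left out 1 library and not without the block (edgeR adjusted p 0.0175). The receptor subunits Lifr and Il6st were higher by less than 2-fold, at 0.39 and 0.56.

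In epithelial and matrix genes the calls were few and mostly lower. Podxl, an apical sialomucin of polarised epiblast, was at 9.47, 12.5 and 12.8 CPM in 2i and 37.7, 41.9 and 40.4 CPM in CH and fell by 1.78 on the log2 scale (SE 0.16, edgeR adjusted p 6.29e-05). Its mean in DMSO was 411 CPM. Esrp1, an epithelial splicing regulator, fell by 1.40. Krt19, a keratin gene, Grhl2, an epithelial transcription factor, and the small GTPase gene Arl4c fell, with log2 fold changes of -2.50, -1.31 and -1.22. With Cdh2 they were the 6 members called of 35 tested, all lower (17.1%, beside 3.25%), with a median of -0.06. Past the adjusted p and under 2-fold were 1 lower and 3 higher members. Without the block 2 were called, and without 2i replicate 2 or 3 there were 3. Krt18, at -0.25, and Ntn1, the gene for netrin 1, at 209, 369 and 359.8 CPM in 2i and 251, 348 and 369 CPM in CH, did not pass. Of 39 genes of integrins, matrix and actomyosin, 4 fell (10.3%, beside 3.25%) and 1 rose (2.56%, beside 0.841%). Their median was -0.0001, with 20 members below 0 and 19 above, and 1 lower and 3 higher were past the adjusted p and under 2-fold. Past the adjusted p, whatever the fold, were 7 lower and 9 higher in the fit of 6 samples. Without replicate number 1 there were 7 lower and 16 higher, so the list as a whole did not fall. Zyx, a focal adhesion protein whose gene overlaps Epha1 at an exon, fell by 1.80, and Lamb1, a laminin chain of the basement membrane, fell by 1.15. Nid1, which links laminin to collagen IV, was at 169, 163 and 163 CPM in 2i and 57.6, 50.5 and 59.2 CPM in CH and rose by 1.57 (edgeR adjusted p 6.50e-05). Without the block Krt19, Grhl2, Arl4c and Lamb1 were not called (edgeR adjusted p 0.0129, 0.0947, 0.0109 and 0.0253).

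Among cell cycle genes, Ccnd2, the gene for cyclin D2, and Cdkn1c, an imprinted inhibitor of cyclin-dependent kinases, were the 2 called members of 32, both lower (6.25%, beside 3.25%). With any single 2i library left out, 1 was called. Ccnd2 was at 3.69, 6.08 and 5.59 CPM in 2i and 23.2, 24.0 and 19.6 CPM in CH, a log2 fold change of -2.12 (edgeR adjusted p 2.29e-05), and Cdkn1c at 4.49, 4.13 and 4.53 CPM in 2i and 48.7, 19.1 and 15.3 CPM in CH, a log2 fold change of -2.62. Cdkn1c shares 30.7% of its exon bases with another annotated gene. In the BCL2 family, which sets the threshold for apoptosis, Bcl2 and the pro-apoptotic Pmaip1 fell, with -1.39 and -1.33 (2 of 17 members, 11.8% beside 3.25%). Bcl2 was called in 2 of 6 fits with 1 library left out, and Pmaip1 was not called without the block (edgeR adjusted p 0.0389). Bcl2l11, the gene for Bim, whose protein ERK marks for degradation, was at -0.42 on the log2 scale and did not pass the test (edgeR adjusted p 0.0601). Of Nodal and BMP pathway genes, 2 of 25 were called (8%, beside 0.841% of all genes higher), Lefty2 and the inhibitor of differentiation Id4, both higher, the latter by 1.52 and not without the block (edgeR adjusted p 0.0889).

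**Figure D4:**
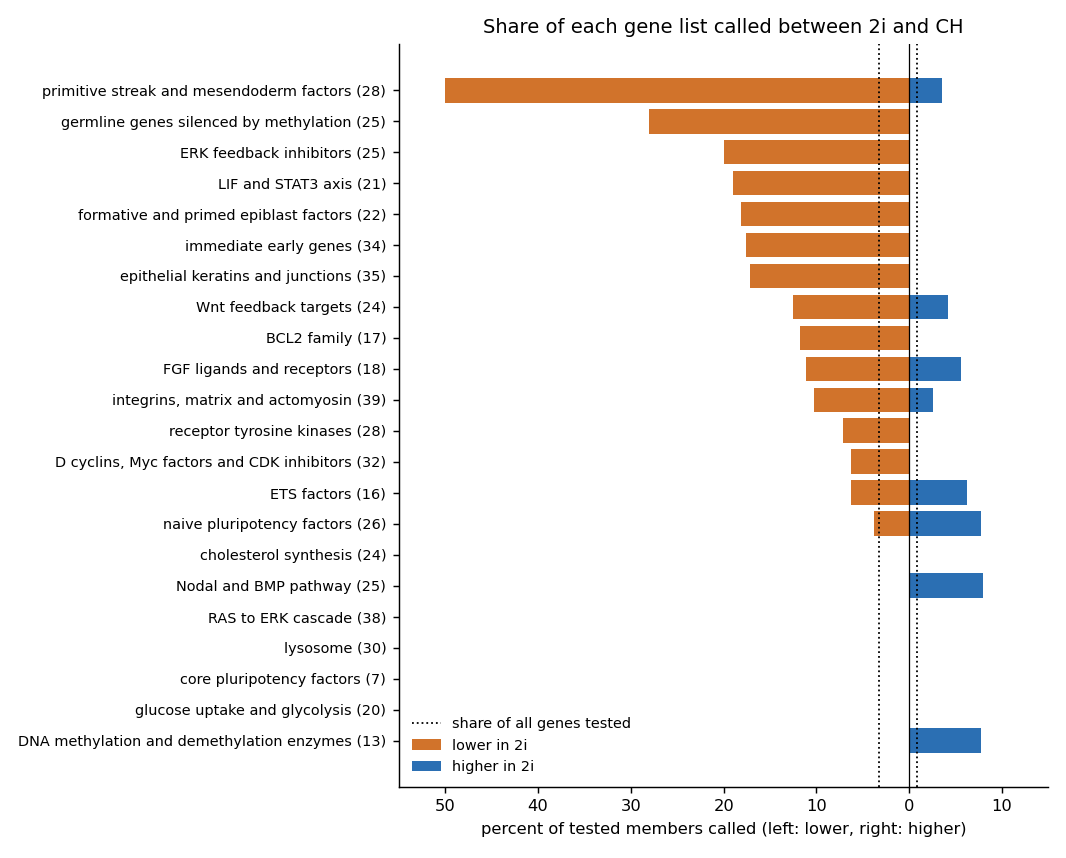
Percent of the tested members of each gene list called lower (left, orange) or higher (right, blue) in 2i than in CH, with the number tested in brackets and dotted lines at the shares of all genes tested, 3.25% and 0.841%. Primitive streak factors have 14 of 28 lower, of which 6 had fewer than 10 counts in every 2i sample, and the RAS to ERK cascade has no call by edgeR's test in the fit of 12 samples.

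The largest changes without overlap, among genes averaging 100 counts or more, lay partly outside these lists. After Egr1, the largest falls were in Trim67, a ubiquitin ligase of neurons, at 1.18, 0.501 and 0.531 CPM in 2i and 22.8, 15.4 and 9.56 CPM in CH (log2 fold change -4.43), and Alox15, a lipoxygenase, at 7.00, 5.25 and 4.28 CPM in 2i and 145, 113 and 94.5 CPM in CH (-4.42). Piezo2, a mechanosensitive ion channel, Adcy2, an adenylate cyclase, and Scara5, a scavenger receptor, fell, with log2 fold changes of -4.27, -3.53 and -3.49. Nat8l, which synthesises N-acetylaspartate, and Pkdcc, a secreted kinase, fell, with -3.52 and -3.20. Nat8l and Pkdcc in CH were near their level in DMSO, with means of 6.78 and 7.39 CPM and of 16.9 and 19.7 CPM. Alox15, in contrast, was at 4.26 CPM in DMSO, 118 in CH and 5.51 in 2i. Over all 534 genes that fell, the DMSO mean was above that of CH for 313 and below that of 2i for 76. These genes were selected for their difference between 2i and CH, and no share over all genes was counted. The counts therefore describe the calls only.

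The largest rise was in Spic, an ETS factor related to PU.1, at 14.6, 13.2 and 13.8 CPM in 2i and 1.23, 3.92 and 4.08 CPM in CH (2.23). Among the next were Sfrp1, then Prdm14 and Pla2g4e, a phospholipase, both at 1.94, and Slc15a1, a peptide transporter, at 1.93. Hdac7, a histone deacetylase, was at 22.9, 22.6 and 25.0 CPM in 2i and 7.63, 5.00 and 7.68 CPM in CH (1.83). Jam2, a junctional adhesion molecule, was at 104, 103 and 103 CPM in 2i and 26.8, 30.2 and 34.5 CPM in CH, with little spread in 2i, and rose by 1.77 (SE 0.12, edgeR adjusted p 1.61e-05). Its level in DMSO was 0.400, 0.188 and 0.154 CPM. The ligand gene Pdgfc rose by 1.72. Of the 138 genes that rose, 122 had a DMSO mean below that of 2i and 39 one above that of CH. These genes were selected for being higher in 2i than in CH, so the counts are again a description only. The calls of Spic and Pla2g4e were lost without the block (edgeR adjusted p 0.0111 and 0.0202).

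A second comparison in the same fit set cultures with Fgf2 and Activin against DMSO. It shares no sample with 2i and CH, although it shares the replicate numbers and the estimate of spread. In it, 275 genes were higher and 149 lower, 1.68% and 0.908% of the genes tested. Of the 534 genes that fell with the MEK inhibitor, 46 were higher with Fgf2/Activin, which is 8.61% of the 534 and 16.7% of the 275, and 11 were lower, 2.06% of the 534. Of the 138 that rose, 12 were higher, which is 8.70% of the 138 and 4.36% of the 275, and 2 were lower, 1.45% of the 138. Egr1 was among the 46, with 33.6, 23.3 and 24.1 CPM in DMSO and 54.8, 81.8 and 84.5 CPM in Fgf2/Activin (1.44, edgeR adjusted p 8.14e-04). Others were Fgf8 (4.52), Junb (1.71) and Trim67 (7.01). Dusp6 was higher with Fgf2/Activin by less than 2-fold, at 0.63, and Dusp4, Spry4 and Etv4 did not pass the test in that comparison, at -0.35, 0.42 and 0.63. Activin A acts through SMAD factors rather than ERK, and its share in these values cannot be told apart from that of Fgf2.

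**Figure D5:**
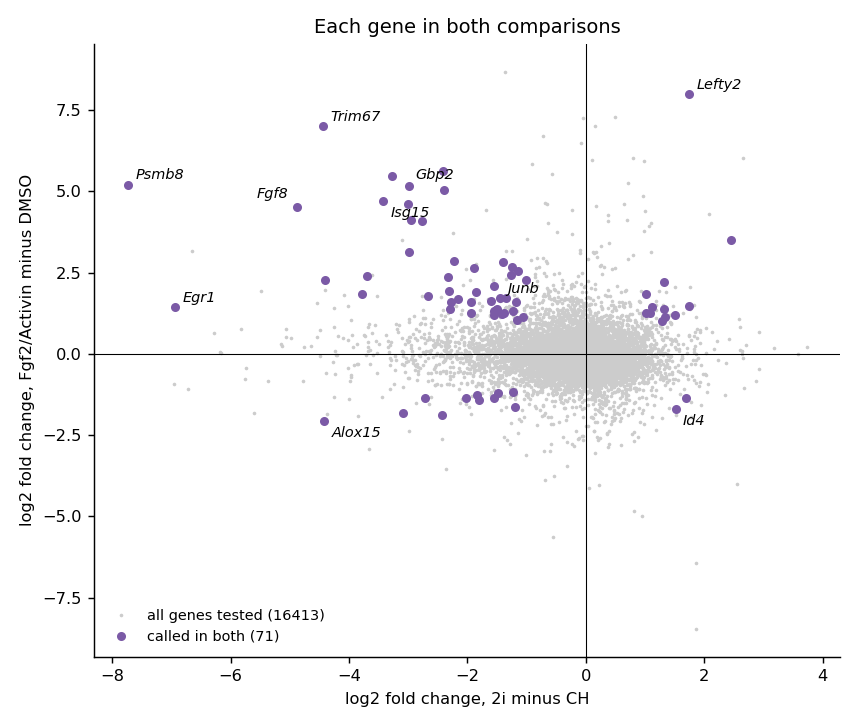
Log2 fold change of Fgf2/Activin minus DMSO against that of 2i minus CH for the 16413 genes tested, with the 71 genes called in both comparisons in purple. The upper left part holds the 46 genes lower in 2i and higher in Fgf2/Activin, among them Egr1, Fgf8 and Trim67.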

How the data were processed

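The authors aligned reads to mm10 with TopHat2, used HTSeq with its unstranded option to count them on Ensembl genes of GRCm38, and deposited these raw counts for 49671 genes in 18 samples. The libraries came from a directional kit, but counting without strand merges the reads of overlapping genes on opposite strands. Of the gene identifiers, 49326 were found in GENCODE M21, which gave symbols and positions. Groups and replicate numbers came from the sample labels, which do not say whether replicates were separate cultures. The 6 Esrrb null and floxed samples were not used here.

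Counts of the 12 wild-type samples were scaled by TMM, filtered with filterByExpr by group (16413 genes left) and tested with glmQLFit and glmQLFTest of edgeR 4.0.16 (R 4.3.3) in 1 fit, with condition and replicate number as terms and the contrasts 2i minus CH and Fgf2/Activin minus DMSO. Calls needed an adjusted p (Benjamini-Hochberg) below 0.01 together with a log2 fold change beyond 1 in size, thresholds taken from the study's methods, which do not use the block. Every same-numbered pair correlated above 0.1 in its deviations (given with the depth in the report), but numbers 2 and 3 were not told apart. The correlations set replicate 1 apart from the others and do not show that numbers 2 and 3 pair the samples. The test was also run on simulated counts, with the same dispersion for all genes and the same replicate effect in every condition. The samples are less uniform than that, so the run does not bear on the p-values reported here. CPM are TMM-scaled. The depth of 25388139 counts or more limits precision for genes of a few counts. Ratios of few counts have exact 95% intervals for counting error only.

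Named genes were the 12 largest called changes in each direction whose groups did not overlap and whose mean count was 100 or more, up to 6 called members per list by size of change, and a set of ERK, pluripotency, streak, Wnt and epithelial genes given whether called or not. Not all of these 115 genes are described, and some genes are not reported here. The 28 lists hold 646 names, of which 644 were matched. Members that did not pass the filter on low counts were not tested, and a member could pass through a high level in 1 condition only. The members and lists were chosen with earlier results of these data known. The alternatives were no block, only the 6 samples compared, size factors of DESeq2 1.42.0 or its test, no filter, at least 10 counts in every sample, glmTreat, no minimum fold, each library left out and, added after seeing the data, replicate number 1 left out. Promoter windows of 250 bases came from RefSeq on GRCm38.p6.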

Additional observations from a re-analysis of the deposited data

How the results depend on the processing

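Between 2i and CH, the block by replicate number moved the count of calls. Against 138 higher and 534 lower genes with the block, the fit with no replicate block gave 52 and 274, a minimum of 10 counts in every sample 88 and 325, glmTreat 10 and 103, no minimum fold change 657 and 849, and replicate number 1 left out (chosen after seeing the data) 210 and 545. The higher share of the calls, 20.5%, was 8.85% with glmTreat and 43.6% with no minimum fold change. Leaving out 1 library gave 79 to 126 higher and 325 to 504 lower genes, namely 79 and 338 without CH replicate 2, 88 and 325 without 2i replicate 2, and 93 and 351 without 2i replicate 3. Between Fgf2/Activin and DMSO, 275 higher and 149 lower genes became 148 and 57 with no replicate block, 79 and 27 with glmTreat, 572 and 514 with no minimum fold change, and 181 to 231 and 85 to 129 with 1 library left out (181 and 85 without Fgf2/Activin replicate 3, 98 lower without its replicate 1 and 93 without its replicate 2). The 46 genes lower in 2i and higher in Fgf2/Activin became 26 with no replicate block, 23 with at least 10 counts, 5 with glmTreat, 71 with no minimum fold change and 26 to 41 with 1 library left out (26 without CH replicate 2, 28 without 2i replicate 2, 30 without 2i replicate 1 or 3). The first principal component held 60.2% of the variance of the 500 most variable genes and 43.5% of that of all genes tested. The cause of these shifts was not tested, except that glmTreat and the minimum counts are stricter and the fit without a minimum fold looser by construction. DESeq2's size factors, its test, and the fit of 6 samples gave counts within 1.5 times the main ones. With no replicate block 27 of the 115 named genes lost the call, and with glmTreat 45. No called named gene changed sign. The uncalled genes that did, without 1 library, were Axin2 (-0.317 to 0.0006), Etv5 (-0.168 to 0.0395), Ier3 (-0.354 to 0.267), Il17rd (-0.338 to 0.0274), Krt18 (-0.525 to 0.0442), Ntn1 (-0.228 to 0.156), Pou5f1 (-0.0458 to 0.0766) and Spred2 (-0.0948 to 0.0237, log2 fold change ranges). Without replicate number 1, Ntn1 had 0.0273 and Pou5f1 -0.025.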

Other observations

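Some of the genes lower in 2i and higher with Fgf2/Activin are known as interferon-inducible. They were picked from that overlap after their values were seen, so their shared direction is no evidence about such genes as a group, and Xaf1, another interferon-inducible gene, was called higher in both comparisons (1.32 and 2.22 on the log2 scale). Gbp2 had means of 1.25 CPM in DMSO, 43.5 in Fgf2/Activin, 10.4 in CH and 1.28 in 2i, Oasl2 of 0.313 CPM in DMSO, 13.8 in Fgf2/Activin, 1.26 in CH and 0.133 in 2i, and Zbp1 of 0.169 CPM in DMSO, 8.93 in Fgf2/Activin, 0.810 in CH and 0.149 in 2i. The antigen processing genes Tap2 and Psmb9 were at 0.989 CPM in DMSO, 5.14 in Fgf2/Activin, 1.44 in CH and 0.111 in 2i, and at 2.04 CPM in DMSO, 6.55 in Fgf2/Activin, 0.679 in CH and 0.149 in 2i. Isg15, an interferon-induced ubiquitin-like protein, was at 0.0515 CPM in DMSO, 1.46 in Fgf2/Activin, 0.494 in CH and 0.0440 in 2i. Psmb8, an immunoproteasome subunit, was at 0.275 CPM in DMSO, 10.1 in Fgf2/Activin, 0.862 in CH and 0 in 2i, with no count in the 2i samples. Ifih1, Mx2, Cd274 and Parp14 had log2 fold changes of -2.98, -2.77, -2.31 and -1.26 between 2i and CH and of 3.12, 4.08, 1.95 and 2.44 between Fgf2/Activin and DMSO. Each of these genes was called in both comparisons. All but Gbp2 of those given by their means (n = 3) were at or below 1.44 CPM in CH. Has2, a hyaluronan synthase, and Tcf15, a factor of the epiblast and paraxial mesoderm, had the same pair of directions, with 5.91 CPM in DMSO, 15 in Fgf2/Activin, 6.14 in CH and 1.24 in 2i for the former and 3.17 CPM in DMSO, 9.11 in Fgf2/Activin, 12.0 in CH and 2.36 in 2i for the latter.

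Some Hox genes outside the streak list, also noticed after their values were seen, were called lower in 2i. They passed the filter on low counts through their level in CH, so that no share is given. Hoxb8 had 155 counts in CH and 8 in 2i, Hoxd9 had 143 counts in CH and 6 in 2i, Hoxa3 had 96 counts in CH and 1 in 2i and Hoxa5 had 60 counts in CH and 1 in 2i, over 3 libraries each. The CH libraries were uneven for Hoxd9, at 1.65 ± 1.73 CPM (mean ± SD), Hoxa3, at 1.11 ± 0.68 CPM, and Hoxa5, at 0.69 ± 0.55 CPM. Hoxb8 was at 1.82 ± 0.20 CPM there. The 3 tested genes of the Hoxc cluster lay on the other side without passing the test, with Hoxc4 at 5.76 CPM in 2i and 3.11 CPM in CH.

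Germline genes that DNA methylation silences in somatic cells were called lower in 7 of 25 tested members (28%, beside 3.25% of all genes), with a median log2 fold change of -0.41. The 7 became 3 without the block, 1 with glmTreat and 2 to 6 with 1 library left out, with 2 without 2i replicate 1, 3 without 2i replicate 3 or CH replicate 1, and 4 without 2i replicate 2. Mael, of the piRNA pathway, was at 3.94, 4.54 and 4.09 CPM in 2i and 9.20, 8.70 and 9.76 CPM in CH, Ddx4, the germline helicase Vasa, at 6.51, 10.6 and 8.84 CPM in 2i and 16.6, 18 and 17.1 CPM in CH, and Sycp2, of the synaptonemal complex, at 0.348, 0.501 and 0.438 CPM in 2i and 1.26, 1.96 and 1.68 CPM in CH. The DMSO means of these 3 genes were 33.4, 30.3 and 7.85 CPM. Metabolic lists held no call by edgeR's test or by DESeq2. Of 20 genes of glucose uptake and glycolysis, 4 were past the adjusted p and under 2-fold, all higher (Hk1 0.98, Aldoa 0.42, Gpi1 0.39, Gapdh 0.30), with 1 lower and 7 higher at an unadjusted p under 0.05. Of 24 cholesterol synthesis genes 2 were lower by less than 2-fold (Hsd17b7 -0.64, Hmgcs1 -0.24), with 11 and 2 at an unadjusted p under 0.05. Of 30 lysosome genes, those past the adjusted p and under 2-fold included Glb1 (0.52) and Ctsz (-0.35), with 2 lower and 11 higher at an unadjusted p under 0.05. The DNA methylation list had 1 call among 13 members, Prdm14, which was higher (7.69%, beside 0.841% of all genes). Calls lower in 2i were 0 in the main fit and 1 by DESeq2's test. They were 2 in the fit of 6 samples, with no filter and without replicate number 1. Past the adjusted p, whatever the fold, were 1 lower and 2 higher with all 12 samples and 4 lower and 5 higher with the 6.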
